A study of Mus musculus with 2 samples.

Results

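The Myb family of transcription factors was described from total RNA sequencing of mouse hematopoietic stem cells, the long-lived marrow cells from which all blood lineages descend. Its members are the 3 genes Myb, Mybl1 and Mybl2, matched by symbol to their Ensembl identifiers among 43346 mouse genes in the tables. The study holds a single group of 2 libraries, numbered by the labels as biological replicates 1 and 2, each made from 100 cells of adult male C57BL/6J mice aged 5 to 6 weeks. The labels list 1 donor identifier for both, under separate biosample numbers. They do not state whether distinct animals were used, so differences between the libraries can be technical in part. No second condition was sampled, so the comparisons are between members, between transcript models and between the libraries, and no p-value is given.

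Myb proteins bind DNA through repeats of a tryptophan-rich helical fold and activate transcription. Myb, the cellular form of an oncogene carried by avian leukemia viruses, is needed for definitive blood formation and keeps progenitors immature and dividing. Mybl2 is made in nearly all dividing cells, where E2F factors switch its gene on and its protein joins the MuvB complex to activate genes of the late cell cycle. Mybl1 is best known as a regulator of male meiosis and of the precursors of piRNAs, the small RNAs that silence transposons in germ cells.

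The tables gave 48307557 expected counts (reads assigned to genes by a statistical model) in replicate 1 and 28945011 in replicate 2 over mouse genes, of which 19528380 and 10411450 fell on nuclear protein coding genes. Levels are in TPM, transcript abundance per length scaled to a fixed total per library. Detection required 1 TPM together with 10 expected counts, which 45.5% of nuclear protein coding genes reached in both libraries. Of 10 stem cell marker genes, 9 were detected in both libraries, and Slamf1 in replicate 1 alone. The list summed to 595 and 417 TPM in replicates 1 and 2, with 8 of the 10 genes higher in replicate 1 and a median log2 difference of 0.62. The libraries differed in genes of other marrow cells. The 8 neutrophil markers summed to 0.5 and 315 TPM in replicates 1 and 2, the 6 early myeloid markers to 558 and 1578 TPM, and the 8 B cell markers to 9.08 and 37.8 TPM. The T cell markers summed to 8.64 and 7.05 TPM. Cd3e (3.56 and 0 TPM) and Cd3g (3.18 and 0 TPM) were in replicate 1 alone, and Lck was at 1.19 and 6.95 TPM. The erythroid markers summed to 1615 and 1395 TPM, mostly from Car1 (1333 and 1071 TPM), with 3 of the 6 genes higher in each library. The megakaryocyte markers summed to 20.4 and 44.9 TPM. Retnlg and Mmp8 of mature neutrophils had no expected count in either library, and Pax5, Rag1, Cd79b, Igll1 and Vpreb1 of B cells had none in replicate 1. A pool of cells cannot tell fewer cells of a type from less RNA per cell.

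The 3 members stood at levels far apart, and their order was the same in both libraries. Myb was at 187 and 196 TPM in replicates 1 and 2, Mybl2 at 20.1 and 37.7 TPM, and Mybl1 at 0.46 and 1.82 TPM. No library's value for a member lay within the range of another member. Myb carried 90.1% of the family's summed TPM in replicate 1 and 83.2% in replicate 2, Mybl2 9.72% and 16.0%, and Mybl1 0.222% and 0.772%. Both Myb and Mybl2 were detected in both libraries, against the 45.5% of nuclear coding genes given above, whereas Mybl1 passed in replicate 2 alone. None of the 3 was over 2-fold apart between the libraries on log2(TPM + 1), against 23.3% of nuclear coding genes detected in either library. That share includes genes that passed in 1 library alone, as Mybl1 did. The 2-fold call depends on the scale for Mybl1 and Mybl2, as given below.

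Within a library, where depth and scaling cancel, Myb lay above Mybl2 by 9.27-fold in replicate 1 and 5.21-fold in replicate 2. The log2 ratio of Myb to Mybl2 was 2.79 ± 0.59 (SD, n = 2, with 0.1 TPM added to each value). That of Mybl2 to Mybl1 was 4.74 ± 0.62, and that of Myb to Mybl1 was 7.53 ± 1.21. Each ratio exceeded its own spread, and with 2 libraries the smallest two-sided p of an exact sign-flip permutation is 0.5, so none is given.

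**Figure D1:**
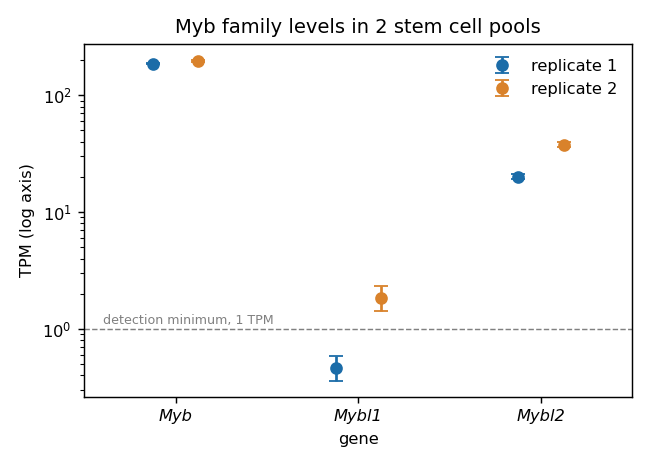
TPM of Myb, Mybl1 and Mybl2 on a log axis, with 1 point per library and bars for the exact Poisson interval of the read count (95%, counting error only). Myb sits at 187 and 196 TPM, Mybl2 between 20.1 and 37.7 TPM, and Mybl1 on either side of the 1 TPM minimum.

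Myb was among the most abundant messages of these cells. Its gene lies on the minus strand of chromosome 10 (GRCm38, 21124935 to 21160984), and it averaged 191 ± 6.81 TPM (SD, n = 2) from expected counts of 16891 in replicate 1 and 9553 in replicate 2. Counting error alone gave 95% exact Poisson intervals of 184 to 189 TPM in replicate 1 and 192 to 200.1 TPM in replicate 2. Among 21461 nuclear protein coding genes it ranked 178th in replicate 1 and 133rd in replicate 2, so that 99.2% and 99.4% of them lay below it. The libraries differed by -0.07 in log2(TPM + 1), replicate 1 minus replicate 2. Among 361 genes within 2-fold of its mean the median size of that difference was 0.28, and 17.2% of them lay closer together than Myb did. The coding genes nearest to it in both libraries, by Euclidean distance over log2(TPM + 1) in the 2 libraries, were the histone gene Hist1h2bn (188 and 193 TPM, distance 0.030), Srrm1, a splicing coactivator (191 and 194 TPM, distance 0.040), and Thrap3, an RNA processing factor (178.89 and 200.67 TPM, distance 0.068).

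The genes beside Myb did not share its level. Hbs1l, which encodes a ribosome rescue factor and begins 134995 bp upstream of Myb, stood at 17.1 and 21.1 TPM in replicates 1 and 2. Ahi1, a gene of the primary cilium 44506 bp beyond the 3′ end of Myb, was at 4.87 and 4.52 TPM. The antisense gene Gm26577, which overlaps Myb on the opposite strand, had no expected count in either library. It shares 300 of the 4172 stretches of 50 bases in the annotated Myb transcripts, and reads within those stretches can be told apart only by strand. How strand was handled is not given here.

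Much of the Myb signal was assigned to a transcript that does not encode the full protein. The tables quantify 3 Myb models, which share 12 identical exons and 1926 bases. Myb-201 is the standard coding form, with 15 exons and 636 codons. Myb-203 also carries a coding exon of 357 bases (exon 10 of that model, chromosome 10, 21144969 to 21145325), which adds 119 codons in frame. Myb-202, annotated as a retained intron, stops inside the intron after exon 14 of Myb-201, with 400 bases of intron sequence (21138893 to 21139292) and without the last coding exon. The sequences at these points are shown because they are what tells the models apart, read 5′ to 3′ on the minus strand of GRCm38 from the GENCODE M21 transcripts. Capitals mark the first or last 40 bases of the alternative exon, or the first 40 of the retained intron, and lower case the 20 adjoining bases of shared exons.
Myb-203, exon 9 into the alternative exon: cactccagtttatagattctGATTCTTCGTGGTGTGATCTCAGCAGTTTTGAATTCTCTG
Myb-203, the alternative exon into exon 11: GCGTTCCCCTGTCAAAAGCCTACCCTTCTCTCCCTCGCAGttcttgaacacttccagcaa
Myb-201, the same exons joined without it: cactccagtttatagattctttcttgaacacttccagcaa
Myb-202, exon 14 running into the intron: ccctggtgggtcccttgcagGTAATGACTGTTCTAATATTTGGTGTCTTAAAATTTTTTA
Myb-201, exon 14 joined to exon 15: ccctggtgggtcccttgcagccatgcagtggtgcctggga

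The retained-intron model Myb-202 took 40.5% of the gene's TPM in replicate 1 and 51.3% in replicate 2, the largest share of the 3 models (45.9 ± 7.59%, SD, n = 2). Its level was 75.6 and 100.5 TPM in replicates 1 and 2, from 5343 and 4007 expected counts. The long coding form Myb-203 held 31.7% and 23.2% (59.1 and 45.4 TPM), and Myb-201 held 27.8% and 25.6% (51.9 and 50.2 TPM). In replicate 1 Myb-203 lay above Myb-201, and in replicate 2 below it. Of the coding signal, 53.2% in replicate 1 and 47.5% in replicate 2 carried the alternative exon (50.4 ± 4.07%, SD, n = 2), so the order of both coding forms was within the spread between libraries. The deposited credibility intervals of Myb-203 (54.9 to 60.2 TPM) and Myb-201 (46.7 to 54.5 TPM) were apart in replicate 1, and those of replicate 2 overlapped (40.6 to 46.4 TPM and 42.5 to 52.8 TPM). By expected counts, which do not correct for length, Myb-203 led in replicate 1 with 40.1%, against 31.6% for Myb-202, and Myb-202 led in replicate 2 with 41.9%, against 30.7% for Myb-203. Summed over the coding models alone, Myb stood at 111 and 95.6 TPM in replicates 1 and 2.

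**Figure D2:**
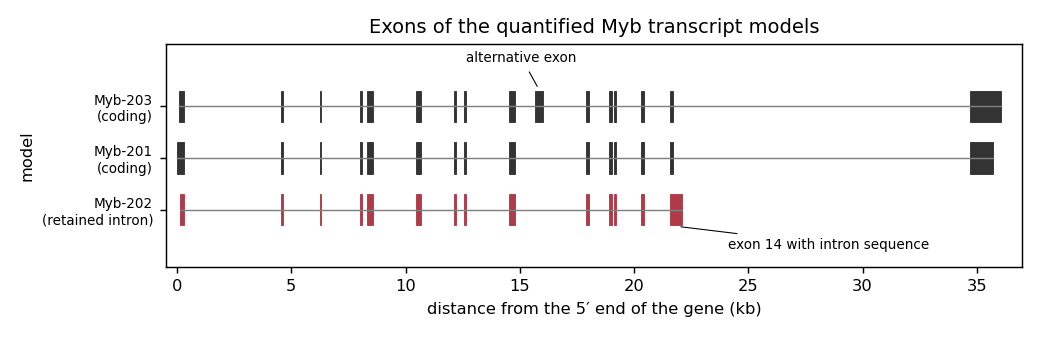
Exons (boxes) and introns (lines) of the 3 quantified Myb models by distance in kb from the 5′ end of the gene, with coding models in black and the retained-intron model in red. Myb-203 differs from Myb-201 by an internal exon of 357 bases and a longer last exon, and Myb-202 ends in the intron after exon 14.

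The Myb share was high for a gene with 1 retained-intron model. Among 1610 coding genes detected in both libraries with exactly 1, the median share of the gene's TPM was 1.14% in replicate 1 and 12.3% in replicate 2, and Myb lay above 85.3% and 96.0% of them. Over all 4318 such genes, with any number of these models, the median was 19.3% in replicate 1 and 25.4% in replicate 2. Myb lay above 69.7% of these in replicate 1 and above 84.3% in replicate 2. Among the 233 of these genes averaging at least 100 TPM, Myb exceeded 72.5% and 88.8%. The gain of 10.7 percentage points in replicate 2 was larger than that of 68.1% of the 4318 genes, and 55.1% of them had a higher share in replicate 2. Total RNA holds unspliced precursors beside finished messages, and their part in these shares was not tested. GENCODE M21 lists 6 Myb models, and the annotation of the tables only these 3, so reads elsewhere in the introns had no model of their own.

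Mybl2, the member tied to the cell cycle, was well expressed and differed between the libraries. It lies on the plus strand of chromosome 2 (GRCm38, 163054687 to 163084688) and averaged 28.9 ± 12.4 TPM (SD, n = 2), with 1868 expected counts in replicate 1 and 1677 in replicate 2. The exact Poisson intervals were 19.2 to 21.1 TPM in replicate 1 and 35.9 to 39.5 TPM in replicate 2. They do not meet, nor do those of Myb given above, and they cover counting error only. Mybl2 ranked 3618th and 1516th among nuclear coding genes. Replicate 2 was 1.87-fold higher in TPM, a log2(TPM + 1) difference of -0.87 for replicate 1 minus replicate 2. Of 3696 genes within 2-fold of its mean, 83.1% lay closer together, and their median size of difference was 0.39. Counts scaled to nuclear coding reads were 95.7 and 161 CPM, 1.68-fold higher in replicate 2. Part of the gap came from the length assigned to the gene, 2892 effective bases in replicate 1 and 2452 in replicate 2. At a common length the levels were 20.1 and 31.95 TPM.

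Most Mybl2 reads belonged to the full coding model. The longest model (ENSMUST00000018005), with 14 exons, took 94.6% and 91.1% of expected counts in replicates 1 and 2, but 77.5% and 63.5% of TPM, since the other models are shorter. The gene's 2 retained-intron models held 22.5% of TPM in replicate 1 and 28.5% in replicate 2 between them, from 102 and 120 expected counts. Mybl2 lay close to the middle of the genes with a retained-intron model, above 53.3% of them in replicate 1 and 54.8% in replicate 2. The processed pseudogene Gm3320 on chromosome 17 in M21 shares 859 of the 4627 stretches of 50 bases of the Mybl2 transcripts and matched no row of the tables, so whether reads from it were counted for Mybl2 was not tested. No stretch of 31 bases was shared between any 2 members, so reads of the family were not interchangeable at that length.

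Coding genes nearest to Mybl2 in level were Mrps18b, a mitochondrial ribosomal protein gene (20.7 and 36.9 TPM, distance 0.047), Rrp1, a factor of ribosome assembly (20.9 and 37.8 TPM, distance 0.054), and Spcs3, a signal peptidase subunit gene (20.96 and 37.84 TPM, distance 0.056). On either side of Mybl2, the ciliary transport gene Ift52 was at 14.84 and 14.03 TPM, and Gtsf1l, 2346 bp away, had no expected count in either library.

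Mybl1 was close to the detection limit. It lies on the minus strand of chromosome 1 (GRCm38, 9667415 to 9700209), with 71 expected counts in replicate 1 and 69 in replicate 2. Its level was 0.46 TPM in replicate 1 (exact Poisson interval 0.36 to 0.58) and 1.82 TPM in replicate 2 (1.42 to 2.30), 3.96-fold higher, with a mean of 1.14 ± 0.96 TPM (SD, n = 2). Scaled to nuclear coding reads the counts were 3.64 and 6.63 CPM, 1.82-fold higher in replicate 2. The assigned length differed as well. All reads of replicate 1 were assigned to the full model (ENSMUST00000088658, 4858 effective bases), whereas in replicate 2 a short retained-intron model (ENSMUST00000160451) took 50.5% of TPM from 9.42 expected counts, and the gene's effective length fell to 2091 bases. At a common length the levels were 0.46 and 0.78 TPM in replicates 1 and 2, both under the 1 TPM minimum. The coding models alone gave 0.46 and 0.90 TPM.

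Among nuclear coding genes detected in either library, differences were wide at low levels. Of 4692 with a mean of 1 to 10 TPM, 30.7% lay over 2-fold apart. The shares were 13.9% at 10 to 100 TPM and 3.89% at 100 TPM or more. This filter admits low genes that passed only where they were high, as Mybl1 did, which favours wide differences. In the 1490 such genes within 2-fold of its mean, the median size of difference was 1.06. Their median signed difference, replicate 1 minus replicate 2, was -0.51, and 45.8% lay closer together than Mybl1 did. Nearest to it in both libraries were Sap30, a subunit of a histone deacetylase complex (0.44 and 1.79 TPM, distance 0.025), the receptor kinase gene Ephb2 (0.47 and 1.77 TPM, distance 0.028) and Nfil3, a bZIP factor of lymphoid cells (0.49 and 1.83 TPM, distance 0.030). Of its neighbours, Vcpip1, which encodes a deubiquitinase, was at 15.8 and 12.1 TPM, and Vxn had no expected count in either library. The neutrophil, early myeloid, B cell and megakaryocyte marker sums given above were higher in replicate 2, as were Mybl1 and Mybl2. The stem cell, erythroid and T cell marker sums were lower there. The part of any of these cell types in the difference of Mybl1 or Mybl2 was not tested.

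**Figure D3:**
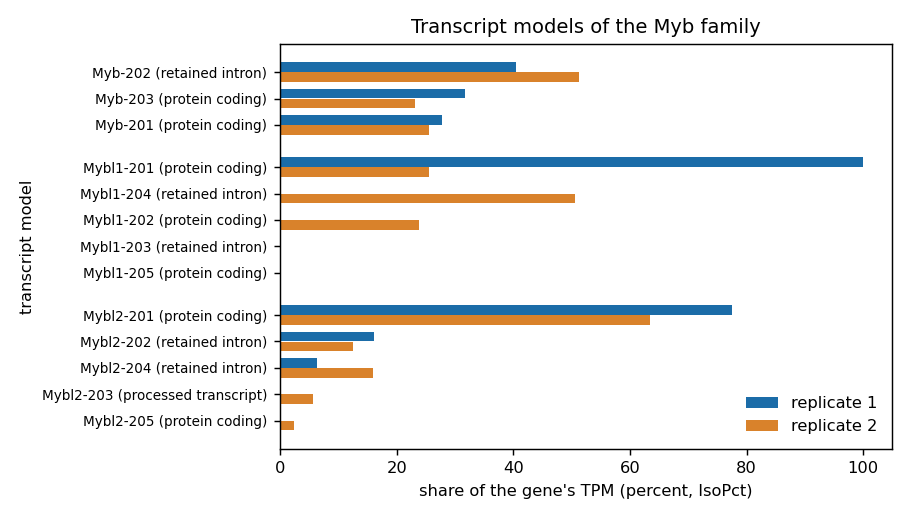
Share of each gene's TPM (percent) assigned to each transcript model, with 1 bar per library. Myb-202 has the highest share of TPM for Myb in both libraries (40.5% and 51.3%), the longest coding model leads for Mybl2 (77.5% and 63.5%), and that of Mybl1 holds 100% in replicate 1 and 25.6% in replicate 2.

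The size of the difference between the libraries depended on the scale. For Myb it ran from -0.25 with TPM rescaled to nuclear coding genes to 0.21 over the coding models alone, so no direction held. For Mybl2 it stayed below 0 on all 9 scales, between -1.07 and -0.64. For Mybl1 it was also below 0 on all 9 scales, but from -2.02 with counts per length to -0.29 at a common length. Mybl2 passed 2-fold with rescaled TPM (-1.07) and with DESeq2-scaled counts per length (-1.03). Mybl1 passed it on these (-1.63 and -2.02), with a pseudocount of 0.1 TPM (-1.78) and with posterior mean TPM (-1.01).

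**Figure D4:**
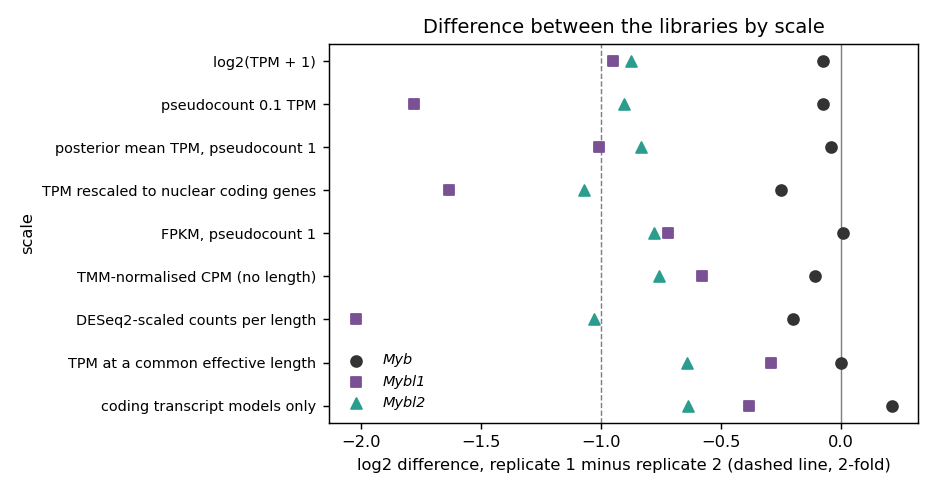
The log2 difference between libraries (replicate 1 minus replicate 2) of each member on 9 scales, with the 2-fold line dashed. Myb lies near 0 on either side, Mybl2 between -1.07 and -0.64, and Mybl1 moves from -2.02 to -0.29.

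Most genes for partners of Mybl2 were detected in both pools. Of 13 genes of the MuvB core and its partners in the DREAM and Myb-MuvB complexes, 12 were detected in both libraries, against 45.5% of nuclear coding genes. This list and those below were chosen with earlier results of these data known, so the contrast with 45.5% is descriptive only. The medians of all 13 were 31.7 and 28.3 TPM in replicates 1 and 2. Nuclear coding genes detected in either library had medians of 11.4 and 10.3 TPM. E2f4, the repressive E2F of the DREAM complex, was highest at 139 ± 8.68 TPM (SD, n = 2, here and for the following genes), then its dimer partner gene Tfdp1 at 118 ± 15.4 TPM and the pocket protein gene Rbl1 at 41.8 ± 0.79 TPM. The 5 core subunits, named after their values were seen, were at 39.1 ± 16.5 TPM (Lin37), 29.1 ± 1.12 TPM (Rbbp4), 19.1 ± 4.88 TPM (Lin54, which binds DNA), 11.7 ± 2.02 TPM (Lin9) and 7.84 ± 1.30 TPM (Lin52).

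Foxm1, which joins MuvB after Mybl2 to activate mitotic genes, was at 17.4 and 44.8 TPM in replicates 1 and 2, over 2-fold apart. E2f5 was the listed gene not detected in both, with no expected count in replicate 1, which allows up to 0.057 TPM, and 1.36 TPM in replicate 2. Over all nuclear coding genes detected in either library, 11.2% were over 2-fold higher in replicate 1 and 12.1% in replicate 2.

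All 7 genes that act upstream of Mybl2 were detected in both libraries, against 45.5% of nuclear coding genes. Ccna2, which encodes the cyclin that with Cdk2 phosphorylates the Mybl2 protein, was at 53.6 and 94.3 TPM in replicates 1 and 2, and Cdk2 at 29.1 ± 1.72 TPM. Of the activating E2F genes, E2f3 was at 37.3 and 15.7 TPM in replicates 1 and 2, over 2-fold apart in the opposite direction to Mybl2. The other activating members, named after their values were seen, were higher in replicate 2 by less than 2-fold, E2f1 at 5.03 and 8.87 TPM and E2f2 at 7.62 and 10.4 TPM.

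Genes of the late cell cycle that Mybl2-MuvB binds were all 16 detected in both libraries, against 45.5% of nuclear coding genes. Their medians were 31.2 and 23.8 TPM in replicates 1 and 2. Top2a, the topoisomerase of chromosome condensation, led at 170 ± 8.66 TPM, followed by the ubiquitin conjugating enzyme gene Ube2c at 54.9 ± 6.92 TPM and the mitotic cyclin gene Ccnb1 at 50.8 ± 9.11 TPM. Whereas Mybl2 was higher in replicate 2, 11 of the 16 had higher values in replicate 1, and the median log2 difference was 0.23. It was 0.16 for the 3696 genes within 2-fold of the mean of Mybl2, and 0.09 for all nuclear coding genes detected in either library. Cdc20, an activator of the anaphase-promoting complex, was over 2-fold higher in replicate 1 (46.2 and 19.8 TPM), and the kinase gene Aurkb over 2-fold higher in replicate 2 (30.9 and 64.5 TPM).

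Promoter sequences from RefSeq (GRCm38.p6, a fixed window around the listed start) were available for Myb and Mybl2. Both hold the 9 bases TTGGCGGGA, an E2F-type site in textbook form, beginning 11 bases before the RefSeq start of Myb (21160984) and 15 bases before that of Mybl2 (163054635, which lies upstream of the GENCODE start given above). They are shown because E2F control is the best known input to Mybl2, with the motif in capitals.
Myb, minus strand, chr10:21160972-21161010: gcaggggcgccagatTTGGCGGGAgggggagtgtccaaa
Mybl2, plus strand, chr2:163054605-163054643: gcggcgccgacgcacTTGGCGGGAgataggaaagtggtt
The motif was chosen after these windows were read. On either strand it occurs in 79 of 27025 genes with a window (0.292%), and in 47 of the 7976 detected in both libraries (0.589%). Both counts include Myb and Mybl2. None of the 14 late cell cycle genes that have a window holds it. The CHR element that MuvB binds, searched as TTTGAA or TTTAAA on both strands, occurs in 12 of those 14 genes, against 30.6% of all genes, and in neither Myb nor Mybl2. The Myb core site, searched as AACGG or AACTG on both strands, occurs in 9 of the 14, against 58.6% of all genes. A match is a run of letters, and the data do not show that it is bound.

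All 9 genes for coactivators and chromatin partners passed in both libraries, against 45.5% of nuclear coding genes. Their medians were 42.4 and 38.4 TPM in replicates 1 and 2. Runx1, which shares many enhancers with Myb, was at 99.1 ± 20.1 TPM and Psip1 at 74.2 ± 7.79 TPM. Kmt2a, which encodes MLL1, was at 68.1 ± 3.53 TPM. The acetyltransferase genes Ep300 and Crebbp, whose products bind the Myb activation domain and which were named after their values were seen, were at 56.9 ± 2.57 and 40.4 ± 2.82 TPM. None of the 9 was over 2-fold apart, against 13.9% of nuclear coding genes detected in either library and averaging 10 to 100 TPM. Not all of the 9 average in that range, and so few genes cannot be told from that share.

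Genes for proteins that modify, degrade or repress Myb were also present, with 12 of 12 detected in both libraries, against 45.5% of nuclear coding genes. Trim28, a corepressor, was at 246 ± 27.6 TPM, and Mybbp1a, whose product binds the leucine zipper of Myb, at 158 ± 7.15 TPM. None was over 2-fold apart between the libraries, against the 13.9% of nuclear coding genes at 10 to 100 TPM given above. Not all of the 12 average in that range, and so few genes cannot be told from that share. The 4 miRNA genes listed as regulators of Myb were at 0 TPM, in libraries whose labels give RNA above 200 bases, too long for such hairpins.

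Known targets of Myb in blood progenitors were abundant, and all 10 were detected in both libraries, against 45.5% of nuclear coding genes. Their medians were 103 and 95.3 TPM in replicates 1 and 2. Myc, the growth regulator, was at 229 ± 81.7 TPM, and, named after their values were seen, the kinase receptor gene Kit at 112 ± 6.69 TPM and Cd34 at 88.1 ± 14.1 TPM. The granule enzyme genes Mpo (246 and 891 TPM) and Elane (172 and 463 TPM) were over 2-fold higher in replicate 2, while Myb itself differed by 1.05-fold. Both are also among the 6 early myeloid markers, so the summed level given above includes them. The rest of that list is named after its values were seen. Prtn3 (45.8 and 96.2 TPM) and Ctsg (25.05 and 55.3 TPM) were also over 2-fold higher in replicate 2. Ms4a3 (15.5 and 17.2 TPM) and Csf3r (53.7 and 56.2 TPM) were nearly level. The other 8 targets lay within 2-fold.

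The germ line targets of Mybl1 were mostly undetected. Of 15 genes of meiosis and the piRNA pathway, 2 were detected in both libraries, against 45.5% of nuclear coding genes. Of the rest, 1 was detected in replicate 1 alone and 12 in neither. The median of all 15 was 0 TPM in both libraries. The 3 highest were the germ cell helicase gene Ddx4 (1.02 and 2.6 TPM), Spo11, which encodes the nuclease that starts meiotic recombination (2.19 and 1.05 TPM), and Pld6 (1.32 and 0.75 TPM). Piwil1, Mael and Sycp1, genes of piRNAs and of chromosome pairing named after their values were seen, had no expected count in either library, which allows at most 0.0625 and 0.111 TPM in replicates 1 and 2 for each of them, for counting error only.

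Other genes whose products carry Myb-type repeats were expressed at a middle level, with medians of 24.7 and 21.4 TPM in replicates 1 and 2. Of these, 9 of 10 were detected in both libraries, against 45.5% of nuclear coding genes. Zzz3 was at 39.7 ± 19.1 TPM and the telomere factor gene Terf2 at 29.0 ± 8.24 TPM. Snapc4, a subunit of the complex that activates small nuclear RNA genes, was at 34.8 ± 0.58 TPM. Tada2a was over 2-fold higher in replicate 1 (20.0 and 8.96 TPM) and Mysm1, a histone deubiquitinase gene, over 2-fold higher in replicate 2 (11.0 and 22.9 TPM). Mypop had no expected count in either library, which allows up to 0.062 and 0.110 TPM in replicates 1 and 2. Over the 96 distinct genes of all these lists, 77 were detected in both libraries, beside the same 45.5%.

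**Figure D5:**
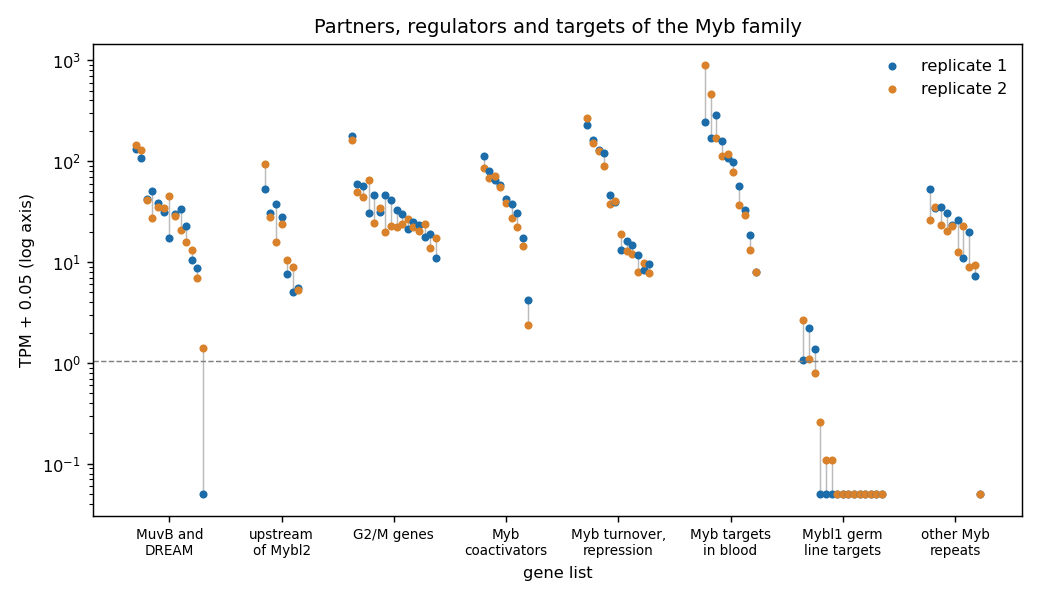
TPM (0.05 added, log axis) of each gene of the 8 lists, with 1 point per library joined by a line and the 1 TPM minimum dashed. The Myb target list reaches highest, the germ line targets of Mybl1 lie mostly at 0, and the 16 late cell cycle genes hold between 10.9 and 176 TPM.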

How the data were processed

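Gene and transcript tables of 2 libraries were used. The authors gave expected counts per feature, which need not be whole and were rounded before normalisation factors were computed. TPM values, with posterior mean TPM beside them, and FPKM values were deposited by the authors in the same tables. The percent of a gene's TPM per transcript (IsoPct) was deposited with the transcript tables. Build mm10 and annotation GENCODE M4 are named in a text the authors deposited beside the tables, and column names follow RSEM, per the file headers. Aligner, trimming and strand settings: not given in the sources used here.

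Of 69691 rows, 43346 are mouse genes, and 42462 of these (98.0%) matched a symbol. The other rows (spike-ins and numbered entries) name no mouse gene, and depths are sums over mouse genes. Positions and transcript types are those of GENCODE M21 on GRCm38, the same build. All 13 member transcripts matched, with M4 lengths 1 and 79 bases shorter for Myb-203 and Myb-201. The members and lists were chosen with earlier results of these data known. Named list genes are the 3 of highest mean TPM, those not detected in both libraries where at most 5, and those over 2-fold apart where at most 4, beside genes that the text says were named after their values were seen. Of the genes this rule names, 1 is not reported here. Intervals cover counting error only, since PCR reads without molecular identifiers are not independent. With 1 group no test between groups was possible. Differences use log2(TPM + 1), which understates those of low genes. Normalisation used edgeR 4.0.16 (TMM) and DESeq2 1.42.0 (size factors) in R 4.3.3, other steps Python 3.11.15 with matplotlib 3.10.9, scipy 1.17.1, pandas 2.3.3 and numpy 2.4.6. Only TMM-scaled differences of gene counts were tested on simulated data, with Poisson noise alone. The other steps were not simulated. Alternatives were other pseudocounts, scales, thresholds and single libraries.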

Additional observations from a re-analysis of the deposited data

How the results depend on the processing

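The order Myb, Mybl2, Mybl1 held in both libraries in TPM, FPKM, posterior mean TPM and expected counts. The log2 ratio of Mybl2 to Mybl1 moved to 3.82 with a pseudocount of 1 TPM, by construction since Mybl1 is near 1 TPM. Leaving out a library in turn gave log2 ratios of 2.38 to 3.21 (Myb to Mybl2), 6.68 to 8.38 (Myb to Mybl1) and 4.30 to 5.17 (Mybl2 to Mybl1). Differences between the libraries (replicate 1 minus replicate 2, main values -0.07, -0.95 and -0.87 for Myb, Mybl1 and Mybl2) were -0.25, -1.63 and -1.07 with TPM rescaled to nuclear coding genes, and -0.20, -2.02 and -1.03 with DESeq2-scaled counts per length. They were 9.0e-05, -0.29 and -0.64 at a common effective length, and 0.21, -0.38 and -0.64 over coding models alone, both scales chosen after seeing the data. FPKM gave 0.010 for Myb and -0.78 for Mybl2, TMM-normalised CPM -0.76 for Mybl2, and a pseudocount of 0.1 TPM -1.78 for Mybl1. At a common length the cause is the fixed length itself. For the other scales the cause was not tested. As a mean share of expected counts the model leading in TPM held 36.8% for Myb (45.9% of TPM) and 92.8% for Mybl2 (70.5% of TPM), since models differ in length, and Myb-203 led by counts in replicate 1. Single libraries gave leading shares of 40.5 to 51.3% (Myb), 25.6 to 100% (Mybl1) and 63.5 to 77.5% (Mybl2). The count of 77 listed genes detected in both libraries was 74 to 78 under the 4 other thresholds and the 2 single libraries, and the germ line targets of Mybl1 gave 0 in place of 2 at a minimum of 5 TPM. No paired analysis was possible because the study has a single group.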
